A study of Mus musculus with 40 samples.

Results

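Reg3b, Reg3g, Reg4 and Retnlb encode secreted proteins of the gut lining: 3 C-type lectins of the regenerating (Reg) family and resistin-like beta. They were chosen as these 4 gene symbols among the 45792 mouse gene IDs counted, and each matched 1 ID. Colon RNA was sequenced 3, 14 and 48 days after mice received the flagellate protozoan Tritrichomonas musculis (T.mu), given as 2000000 sorted cells per mouse, and from control mice that received no inoculum. At each day there were T.mu and control libraries of colonic epithelial cells and of total colon tissue, with 3 libraries a group at days 3 and 14 and 4 at day 48, or 40 libraries in 12 groups. The libraries count 3′ ends of transcripts. Mouse strain, age and sex are not given in the labels used here, the controls are described only by the absence of an inoculum, and a number in each title and a litter tag tie a T.mu library to the control library of the same number. Nothing in the labels says whether an epithelial and a tissue library with the same number came from 1 mouse.

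REG3β and REG3γ, the products of Reg3b and Reg3g, are small lectins secreted onto the mucosa. REG3γ binds the peptidoglycan of Gram-positive bacteria, and transcription of both genes is known to be raised by IL-22 through STAT3 and by microbial signals through MyD88. Reg4 encodes a more distant Reg lectin and is a marker of colonic deep crypt secretory cells and enteroendocrine cells. Retnlb encodes RELMβ, which goblet cells secrete, and in worm infection it is known to be induced by IL-4 and IL-13 through STAT6.

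Reg3b (ENSMUSG00000071356, chr6:78370657-78373466, plus strand) and Reg3g (ENSMUSG00000030017, chr6:78466269-78468872, minus strand) lie on chromosome 6 with the other Reg genes Reg1, Reg2, Reg3a and Reg3d between them. Reg4 (ENSMUSG00000027876, chr3:98222156-98236748, plus strand) stands apart on chromosome 3. Retnlb (ENSMUSG00000022650, chr16:48816856-48818892, plus strand) neighbours Retnla and Retnlg on chromosome 16. All 4 are protein-coding, and these coordinates are whole gene spans of GENCODE M21 on GRCm38.

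Promoters were looked up because Reg3b and Reg3g varied together across libraries and Reg4 did not vary with them. RefSeq promoter sequences (GRCm38.p6) matched 3 of the 4 genes, and the 250 bases before each RefSeq start site are shown 5′ to 3′ on the gene's own strand. They cover chr6:78370635-78370884 (plus), chr6:78468875-78469124 (minus) and chr3:98221906-98222155 (plus), and the RefSeq start of Reg3b lies inside its GENCODE span. Capitals mark matches on either strand to TTCNNNGAA, the spacing that STAT3 is known to bind, and to TATAAA. No promoter sequence of Retnlb was used here.
Reg3b: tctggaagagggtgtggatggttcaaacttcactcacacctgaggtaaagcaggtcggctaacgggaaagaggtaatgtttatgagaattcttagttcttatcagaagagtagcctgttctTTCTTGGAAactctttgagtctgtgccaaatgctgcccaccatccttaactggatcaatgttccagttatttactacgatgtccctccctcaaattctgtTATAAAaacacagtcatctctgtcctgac
Reg3g: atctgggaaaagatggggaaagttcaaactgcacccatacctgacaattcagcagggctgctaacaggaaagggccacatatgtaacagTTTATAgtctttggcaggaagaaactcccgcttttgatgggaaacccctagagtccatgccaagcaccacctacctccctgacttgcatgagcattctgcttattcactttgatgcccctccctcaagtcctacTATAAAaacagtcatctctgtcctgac
Reg4: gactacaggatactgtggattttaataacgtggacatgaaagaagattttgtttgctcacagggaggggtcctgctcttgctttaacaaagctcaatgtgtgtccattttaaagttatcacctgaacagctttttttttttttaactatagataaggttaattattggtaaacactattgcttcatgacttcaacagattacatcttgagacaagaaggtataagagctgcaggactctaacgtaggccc

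The Reg3b and Reg3g windows were 70% identical over 247 aligned bases, and their last 20 bases before the start site, acagtcatctctgtcctgac, were the same. The Reg3b and Reg4 windows were 50.8% identical over 238 aligned bases, with a longest shared run of 7 bases. TATAAA stood 29 bases before the Reg3b start and 27 bases before the Reg3g start, and a second, reverse-strand match lay 161 bases before the Reg3g start; 12.4% of 32851 promoter windows of the same length held that motif. TTCNNNGAA matched the Reg3b window 129 bases before the start, and 7.02% of windows held it. The STAT6-type motif, with 4 bases between TTC and GAA in place of 3, was searched on both strands and matched none of the 3 windows, against 5.85% of all windows. The Reg3b and Reg3g transcripts were 72.8% identical with a longest shared run of 35 bases, and over their last 300 bases, which a 3′ end library reads, 64.6% identical with a longest run of 17 bases. How reads that match both genes were counted is not given in the sources used here, and exchange of counts between Reg3b and Reg3g was not tested.

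Mouse counts per library ran between 170291 and 2866306 in epithelium and between 220717 and 6756616 in total tissue, and 3 epithelial and 4 tissue libraries held under 400000. Levels are given in CPM, a gene's count scaled to the library's total mouse count, and their precision follows from these totals. The 1 row of the count table that is not a mouse gene was higher in every T.mu library than in every control library of its comparison, at 45.2 to 42755 CPM over all T.mu libraries and 5.11 to 969 CPM over all controls. The margin was small in day 48 epithelium, at 417, 59.3, 45.2 and 76.3 CPM in T.mu libraries, against 43.4, 36.2, 27.2 and 21.8 CPM in controls. The control library with 969 CPM was of day 48 tissue. The 15 immune, stromal, muscle, vascular, glial and fat markers summed to 24.9 to 99.8 CPM in epithelium and to 2138 to 4721 CPM in total tissue. The goblet and deep crypt list of 25 genes was higher in epithelium (30495 to 53956 CPM) than in tissue (6988 to 14324 CPM), whereas 10 general and surface epithelial markers summed to 11330 to 20371 CPM in epithelium and 45158 to 78861 CPM in tissue. In total tissue at day 48 the T.mu libraries were shallower than the controls (236155 to 1355659 against 2223447 to 6756616 counts) and carried another second index sequence, so index and inoculum cannot be told apart there. In the other 5 comparisons of T.mu with control both groups shared it. Within each preparation the second index differed between days, so day and index cannot be told apart.

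Some day 48 tissue libraries went against their colon label. The 16 Paneth and small intestine markers summed to 104 to 456 CPM in the 12 tissue libraries of days 3 and 14 and to 12.8 to 57.1 CPM in epithelium. At day 48, T.mu libraries 2 and 4 reached 3562 and 2117 CPM, against 1182 and 4914 CPM in control libraries 2 and 4, while T.mu libraries 1 and 3 had 311 and 145 CPM, against 179 and 248 CPM in control libraries 1 and 3. The bile acid binding protein gene Fabp6, typical of the ileum, stood at 495 and 356 CPM in T.mu libraries 2 and 4, against 342 and 639 CPM in control libraries 2 and 4. T.mu tissue library 1 of day 3 came next, with 94.8 CPM of Fabp6, 104 CPM of Apoa1 and a marker sum of 456 CPM. Every remaining tissue library had at most 12.9 CPM of Fabp6. The Paneth defensin gene Defa24 stood at 189.5 and 59.3 CPM in T.mu libraries 2 and 4, against 11.8 and 721 CPM in control libraries 2 and 4. The fitted day 48 tissue differences, and tissue results over all days that these 4 marker-rich libraries move, are given with and without them, an alternative chosen after seeing the data.

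Retnlb and Reg4 differed between the preparations, as 52.8% of all genes tested did. Over the 3 days, Retnlb was 33.9-fold higher in T.mu epithelium than in T.mu tissue (edgeR quasi-likelihood test, log2 5.08 ± 0.51 SE, adjusted p = 9.02e-10), and 18.8-fold higher in control epithelium than in control tissue (log2 4.24 ± 0.51, adjusted p = 3.12e-08). Reg4 was 3.16-fold higher in T.mu epithelium (adjusted p = 1.17e-08) and 2.29-fold higher in control epithelium (adjusted p = 5.1e-06). Both genes were higher where the goblet and deep crypt list was higher. Reg3g was 3.9-fold lower in T.mu epithelium than in T.mu tissue (log2 -1.96 ± 0.75, adjusted p = 0.0295), and the same comparison in controls gave log2 -1.09 ± 0.77 (adjusted p = 0.244). That call rested on the marker-rich tissue libraries: without them Reg3g gave log2 -0.09 in T.mu and -0.18 in control libraries (edgeR, adjusted p = 0.923 in T.mu libraries, and neither passed). Retnlb and Reg4 passed in both without those libraries, at 42.0-fold and 3.37-fold in T.mu and 18.4-fold and 2.14-fold in control libraries (edgeR). Reg3b did not pass in either (log2 -1.22 ± 0.71 in T.mu and -0.69 ± 0.71 in control libraries, adjusted p = 0.154 and 0.434). So 3 of 4 genes passed in T.mu libraries and 2 of 4 in controls, where 52.8% and 52.8% of all 11834 genes tested did.

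All 4 genes were counted in all 40 libraries and passed the low-count filter in both preparations, through which 10119 genes entered the epithelial fit and 11696 the tissue fit. Across the 20 epithelial libraries, Reg3b ran between 189 and 3088 CPM, Reg3g between 59.6 and 716 CPM, Reg4 between 255 and 844 CPM and Retnlb between 131 and 6727 CPM. Across the 20 tissue libraries, Reg3b ran between 100.3 and 14410.3 CPM, Reg3g between 45.5 and 13512 CPM, Reg4 between 63.4 and 441 CPM and Retnlb between 11.4 and 148 CPM. Within groups, 3 of the 4 genes were among the most variable measured in epithelium: the biological coefficient of variation estimated by edgeR was 72.9% for Retnlb, 71.0% for Reg3b and 66.4% for Reg3g, ranks 6, 8 and 32 of 10119, against 31.9% for the median gene. Reg4 stood below the median at 24.3%. In tissue it was 124% for Reg3g and 117% for Reg3b, ranks 20 and 24 of 11696, with Retnlb at 51.6%, Reg4 at 32.3% and the median gene at 27.1%. Without the marker-rich libraries these were 88.5%, 79.1%, 42.1% and 24.3%, with the median gene at 26.9%. A given difference between groups was therefore measured with much less error for Reg4 than for the other 3.

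In epithelium 1 gene passed the test between T.mu and control libraries on 1 day: Reg4 at day 48, after which Retnlb had the larger but far more variable difference. At an adjusted p below 0.05, 0 of the 4 genes passed at day 3, 0 at day 14, 1 at day 48 and 0 in the mean over days, where 0.356%, 0.504%, 0.296% and 3.39% of all genes did. None of the 4 had an unadjusted p below 0.05 at day 3 or 14, and DESeq2 called none there.

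Reg4 had 463, 821, 551 and 761 CPM in the T.mu epithelial libraries of day 48, against 387, 399, 263 and 255 CPM in the controls. Every T.mu library stood above every control, and the group means were 649 ± 169.8 and 326 ± 77.6 CPM (SD, n = 4 each). The log2 difference was 1.03 ± 0.23 (SE; edgeR, adjusted p = 0.0223, the 24th smallest p of the comparison). At day 14 the groups lay together, at 321, 421 and 451 CPM in T.mu epithelium against 422, 333 and 419 CPM in control epithelium (log2 -0.14 ± 0.27, adjusted p = 0.914). At day 3 Reg4 had 564, 552 and 341 CPM in T.mu epithelium, against 844, 380.1 and 435 CPM in controls, again with overlap (log2 -0.29 ± 0.28, adjusted p = 0.738). The call depended on single libraries. Leaving out T.mu library 2 or 4 gave adjusted p = 0.2 and 0.237, and leaving out control library 3 or 4 gave 0.287 and 0.206, with log2 values of 0.83 to 1.20 over the 8 libraries left out in turn.

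Reg4 was also compared between days within each group. The epithelial libraries of each day carried their own second index sequence, so day and index cannot be told apart in comparisons within a group. Within T.mu epithelium, Reg4 differed between days (edgeR, adjusted p = 0.0321, where 2.66% of genes passed) and was 2.03-fold higher at day 48 than at day 14 (log2 1.02 ± 0.26, adjusted p = 0.0317, 1.33% of genes). Within control epithelium the day 48 level was 1.59-fold lower than at day 3 and did not pass (log2 -0.67 ± 0.26, adjusted p = 0.388), and the test of any difference between days did not pass in controls either (adjusted p = 0.389, 0.0791% of genes). The test of whether the T.mu difference itself changed between days gave an unadjusted p of 0.000609 for Reg4, rank 4 of 10119, with an adjusted p of 0.841 (edgeR). In that test 0% of genes passed, and 419 had an unadjusted p below 0.05; no other tool was run on it. The other 3 genes did not pass any of these day tests in epithelium.

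Retnlb had 1194, 4786, 2080.2 and 6727 CPM in the T.mu epithelial libraries of day 48, against 924, 631, 181 and 475 CPM in the controls. The lowest T.mu library was above the highest control, and the T.mu libraries spanned 5.64-fold among themselves. The log2 value was 2.85 ± 0.83 and did not pass in edgeR (adjusted p = 0.53). Leaving out each library in turn gave log2 values of 2.22 to 3.20, with edgeR's adjusted p at 0.401 or above. DESeq2 on the same counts gave log2 2.87 and an adjusted p of 0.0439, so the call differed between tools while the size did not. At day 14 Retnlb had 165, 646 and 1353 CPM in T.mu epithelium, against 236, 586 and 314 CPM in controls, and at day 3 it had 280.1, 1682 and 261 CPM in T.mu epithelium, against 394, 131 and 341 CPM in controls. On both days the groups overlapped, and the T.mu mean rested on 1 library: without T.mu library 2 at day 3 the log2 value was -0.05 in place of 1.25, and without T.mu library 3 at day 14 it was -0.05 in place of 0.73. The mean over days was log2 1.61 ± 0.52 (edgeR, adjusted p = 0.107), and DESeq2 gave an adjusted p of 0.0241.

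Groups that do not overlap were counted for all genes as well. At day 48 in epithelium, T.mu CPM lay wholly above control CPM for 2 of the 4 genes, Reg4 and Retnlb, where 1.61% of all genes did so. At days 3 and 14 this held for 0 of the 4, where 11.5% and 14.9% of all genes did so with 3 libraries a group. The two-sided exact permutation test over libraries gave p = 0.0286 for Reg4 and for Retnlb at day 48, the smallest that 4 against 4 libraries allow, and 0.343 for each after adjustment over the 24 tests of 4 genes in 6 comparisons. With 3 against 3 libraries that test cannot go below 0.1, and it did not keep same-numbered libraries paired. Permuting labels within each of the 3 days, Retnlb in epithelium gave p = 0.0178 (mean log2 difference 1.39) and an adjusted p of 0.142 over 8 such permutation tests. Against the control library of its own number, the T.mu library was higher in 4 of 4 pairs at day 48 for both genes, and in 7 of 10 pairs over all days for each of the 4 genes.

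**Figure D1:**
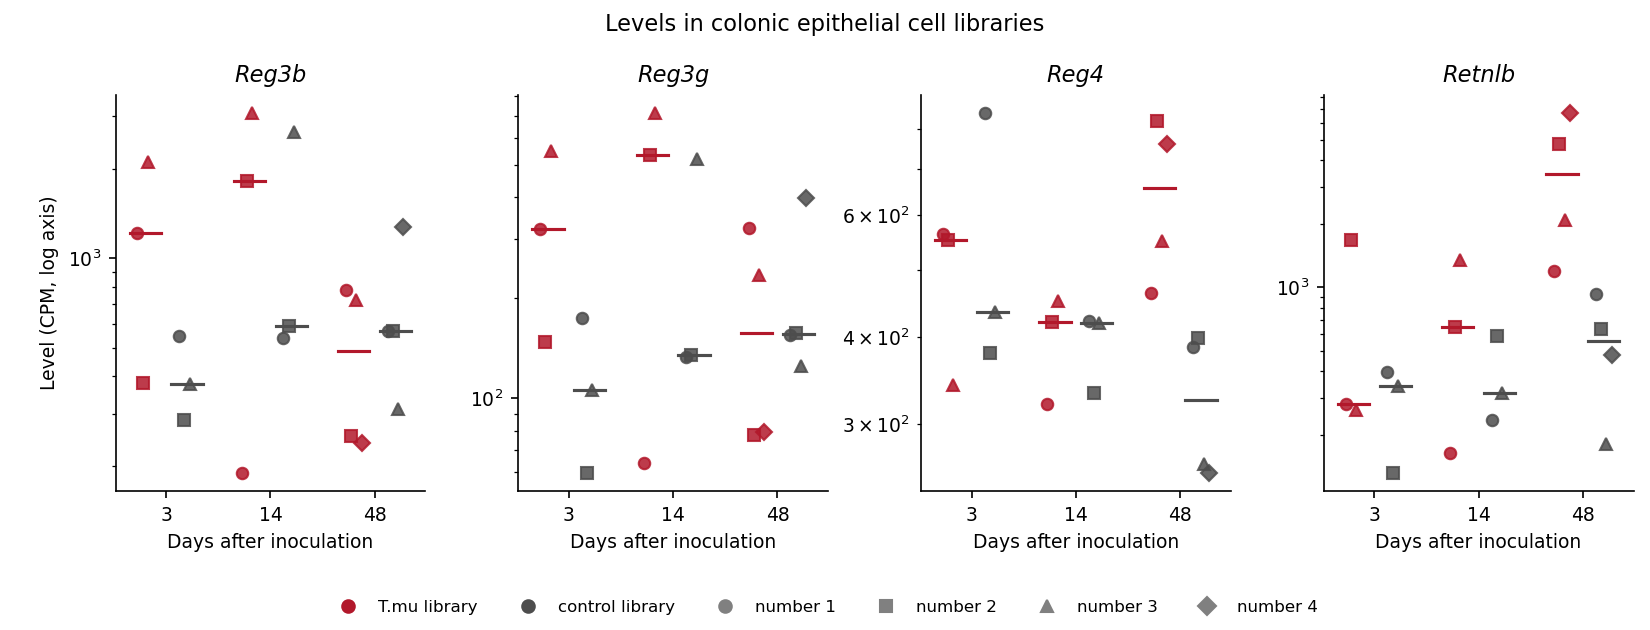
Level in CPM (log axis) of each of the 4 genes in every epithelial library against days after inoculation, with T.mu libraries in red left of control libraries in grey, a marker shape for each library number and a bar at the group median. At day 48 the 4 T.mu libraries of Reg4 (463 to 821 CPM) and of Retnlb (1194 to 6727 CPM) lie above all 4 controls, while Reg3b and Reg3g overlap on every day.

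The Reg3 genes did not differ between T.mu and control epithelium beyond the spread of the libraries. At day 3 Reg3b had 1214, 379 and 2099.7 CPM in T.mu libraries, against 547, 285 and 376 CPM in controls, and Reg3g had 320.5, 148 and 549.9 CPM in T.mu libraries, against 174, 59.6 and 106 CPM in controls. T.mu libraries 1 and 3 stood above every control for both genes and T.mu library 2 fell among them. The log2 values were 1.57 ± 0.92 and 1.59 ± 0.91 (edgeR, adjusted p = 0.571 and 0.56), and the T.mu library was the higher of its numbered pair in 3 of 3 pairs for both genes. Red blood cell markers moved with these groups: Hbb-bs, a beta globin gene, was 5.12-fold higher in T.mu epithelium at day 3 (edgeR, adjusted p = 0.0129), and the 4 globin genes summed to 96.3 to 280.1 CPM in T.mu libraries, against 11.7 to 50.7 CPM in controls. The part of blood in the Reg3 values was not tested.

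At day 14 in epithelium, Reg3b had 189, 1822 and 3088 CPM in T.mu libraries, against 537, 590.2 and 2662 CPM in controls. Reg3g had 64.2, 535 and 716 CPM in T.mu libraries, against 132, 135 and 521 CPM in controls. The T.mu libraries included both the lowest and the highest value of each gene. At day 48 Reg3b had 781, 251, 723 and 239 CPM in T.mu libraries, against 569, 568, 312 and 1276 CPM in controls. Reg3g had 322, 77.9, 233 and 79.2 CPM in T.mu libraries, against 154, 156, 125 and 397 CPM in controls. On this day T.mu libraries 1 and 3 were the high ones and 2 and 4 the low ones for both genes, the reverse of Retnlb, for which 2 and 4 were the high ones. The log2 values were 0.26 ± 0.88 and 0.55 ± 0.80 at day 14 and -0.55 ± 0.76 and -0.31 ± 0.70 at day 48, for Reg3b and Reg3g in that order, with adjusted p between 0.876 and 0.996 (edgeR).

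In total tissue no gene of the 4 passed the test on any day, and the largest differences were those of the Reg3 genes at days 14 and 48. With edgeR, 0 of 4 passed at day 3, day 14, day 48 and in the mean over days, where 0.47%, 0.966%, 1.8% and 1.91% of all genes did, and DESeq2 also called none. In edgeR only Retnlb at day 14 of the 4 had an unadjusted p below 0.05, which for 3 against 3 libraries rests on the spread pooled over the fit. T.mu CPM lay wholly above control CPM for 0 of 4 genes at days 3, 14 and 48, where 7.87%, 6.78% and 1.22% of all genes did so.

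At day 14 in tissue, Reg3b had 464, 12550.3 and 4132 CPM in T.mu libraries, against 393, 1187 and 2597 CPM in controls. Reg3g had 109.7, 3916 and 1839.7 CPM in T.mu libraries, against 45.5, 290.0 and 578 CPM in controls. T.mu libraries 2 and 3 stood above every control for both genes and T.mu library 1 fell among them, and the T.mu library was the higher of each of the 3 numbered pairs. The log2 values were 2.21 ± 1.62 and 2.81 ± 1.79 (edgeR, adjusted p = 0.769 and 0.713). The 16 Paneth and small intestine markers together summed to 104 and 120 CPM in the 2 high libraries, against 161 to 219 CPM in controls. Of these markers Fabp6 went the other way, at 8.6 and 12.9 CPM in the 2 high libraries, against 5.69, 0 and 4.69 CPM in controls. The part of small intestinal RNA in the day 14 values was not tested. In bulk tissue, more cells of a type and more RNA per cell cannot be told apart.

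At day 48 in tissue, Reg3b had 179, 14410.3, 100.3 and 5107 CPM in T.mu libraries, against 362, 4316, 179.5 and 2776 CPM in controls. Reg3g had 104, 13512, 76.7 and 3099.7 CPM in T.mu libraries, against 233, 2708, 89.2 and 1664 CPM in controls. In both groups the high libraries were numbers 2 and 4, the same 4 that held over 1000 CPM of Paneth and small intestine markers, and numbers 1 and 3 were low. The log2 values over all 8 libraries were 1.61 ± 1.37 for Reg3b and 2.09 ± 1.48 for Reg3g (edgeR, adjusted p = 0.677 and 0.591). Without the 4 marker-rich libraries they were -0.93 and -0.77 (adjusted p = 0.943 and 0.965), with 2 libraries left a group. Leaving out T.mu library 2 alone gave -0.01 and -0.04. The part of small intestinal RNA in these values was not tested.

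At day 3 in tissue, Reg3b had 779, 245 and 394 CPM in T.mu libraries, against 609, 779.8 and 1072 CPM in controls. Reg3g had 335, 81.7 and 168 CPM in T.mu libraries, against 156, 155 and 400.1 CPM in controls. The groups overlapped for both (log2 -0.79 ± 1.56 and -0.27 ± 1.67, adjusted p = 0.999 each by edgeR). T.mu library 1, the highest T.mu library for both genes, held 456 CPM of Paneth and small intestine markers. T.mu libraries 2 and 3 held 201 and 256 CPM, against 215 to 239 CPM in controls. The part of small intestinal RNA in the day 3 values was not tested. Within T.mu tissue, Reg3b was 12.3-fold and Reg3g 10.1-fold higher at day 14 than at day 3, and neither passed (edgeR, adjusted p = 0.425 and 0.514).

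**Figure D2:**
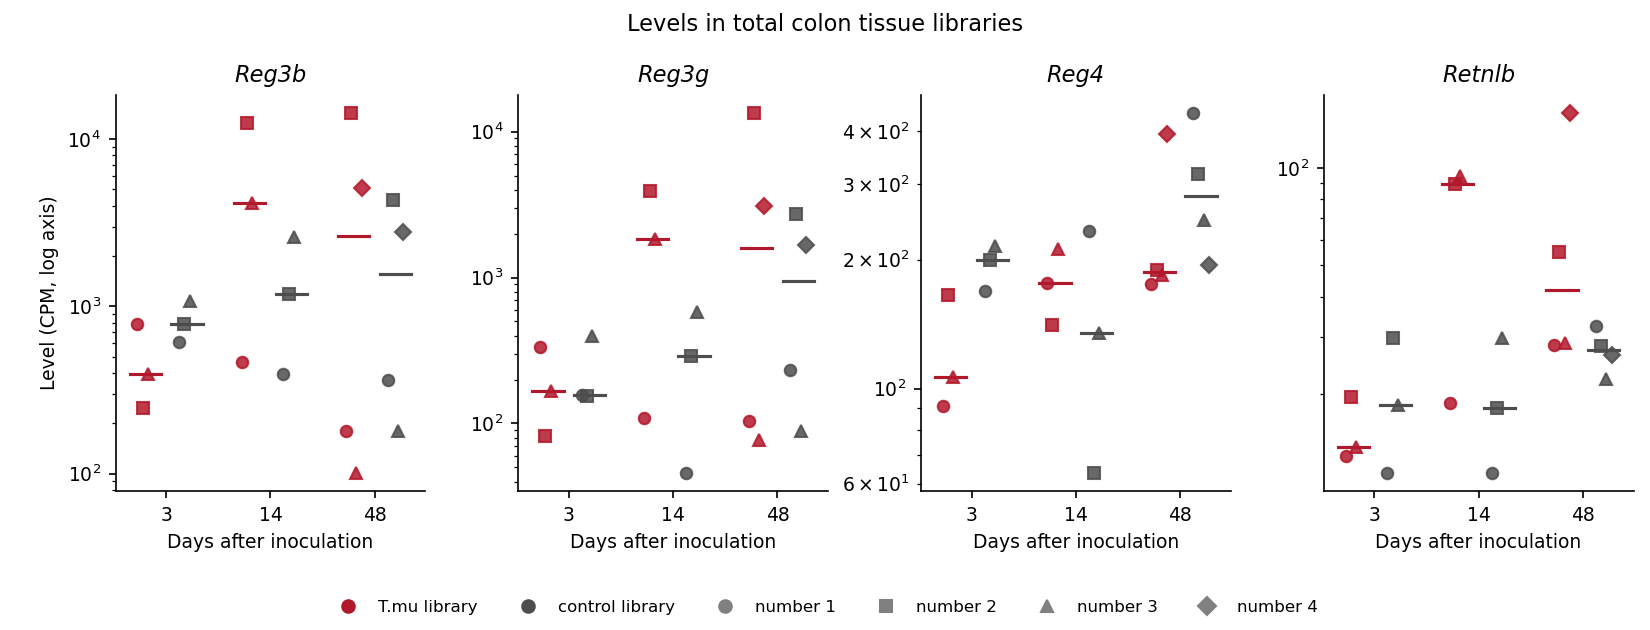
Level in CPM (log axis) of each of the 4 genes in every total tissue library against days after inoculation, with T.mu libraries in red left of control libraries in grey, a marker shape for each library number and a bar at the group median. At day 48, numbers 2 and 4 of both groups hold the high Reg3b and Reg3g values, and at day 14 T.mu libraries 2 and 3 of Reg3b, Reg3g and Retnlb lie above all 3 controls.

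**Figure D3:**
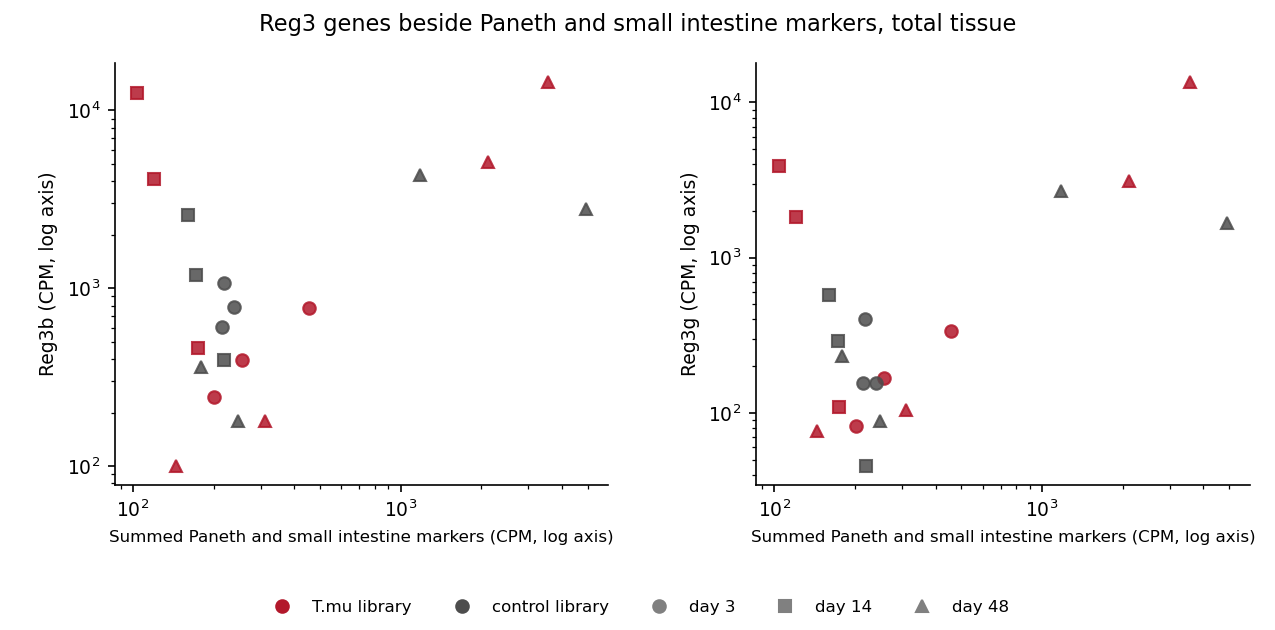
Reg3b and Reg3g in CPM against the summed CPM of 16 Paneth and small intestine markers in the 20 total tissue libraries (both axes log), with T.mu libraries in red, control libraries in grey and a marker shape for each day. The 4 libraries above 1000 CPM on the horizontal axis are all of day 48 and all high in both genes, while the 2 highest day 14 T.mu libraries lie at 104 and 120 CPM of markers.

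Retnlb was near the lower end of measurement in tissue, with 4 to 187 counts a library. At day 14 it had 18.7, 89.3 and 94.3 CPM in T.mu tissue, against 11.4, 18.1 and 29.9 CPM in controls. At day 48 it had 28.3, 55.0, 28.8 and 148 CPM in T.mu tissue, against 32.4, 28.1, 22.2 and 26.4 CPM in controls. T.mu libraries 2 and 3 stood above the controls at day 14, and T.mu libraries 2 and 4 at day 48. The log2 values were 1.58 ± 0.73 and 1.22 ± 0.57 (edgeR, adjusted p = 0.519 and 0.37), and without T.mu library 1 of day 14 the first was 2.13 with an adjusted p of 0.00833. Testing every gene with a count, with no low-count filter, the day 14 value also passed (edgeR, adjusted p = 0.0181). Without the 4 marker-rich libraries the day 48 value was 0.22 (adjusted p = 0.98), since both of its high libraries are among them. At day 3 the groups overlapped, at 12.9, 19.5 and 13.8 CPM in T.mu tissue against 11.4, 29.9 and 18.6 CPM in control tissue.

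Reg4 in tissue did not share the direction it had in day 48 epithelium. At day 48 it had 176, 189.5, 184 and 394 CPM in T.mu tissue, against 441, 317, 247 and 194 CPM in controls, with overlap (log2 -0.25 ± 0.34, adjusted p = 0.826 by edgeR). Without the marker-rich libraries both T.mu libraries (176 and 184 CPM) lay below both controls (441 and 247 CPM), and the value was -0.81 (edgeR, adjusted p = 0.599). The difference between preparations in the day 48 T.mu effect was log2 1.27 ± 0.43 for Reg4 and did not pass (edgeR interaction, adjusted p = 0.315), so the effects were not shown to differ. Without the marker-rich libraries it was 1.83 ± 0.46 (edgeR, adjusted p = 0.267). Across the 4 genes, 0 passed that interaction at day 48 and 0 as a mean over days, where 0.0338% and 0.752% of all genes did; Reg4 at day 48 was the only 1 of them with an unadjusted p below 0.05 in that edgeR fit, and no other tool was run on it. At day 3 all T.mu tissue libraries, at 91.2, 166 and 106 CPM, lay below all controls, at 169, 199 and 216 CPM, as 4.8% of all genes did (log2 -0.75 ± 0.38, adjusted p = 0.999 by edgeR). In a fit on those 6 libraries alone the value was -0.72 with an adjusted p of 0.0152. At day 14 Reg4 had 176, 140.5 and 212 CPM in T.mu tissue, against 233, 63.4 and 135 CPM in controls, and the groups overlapped. None of the 4 genes passed the tissue tests of a difference between days, neither in T.mu libraries, in controls nor in the T.mu effect, where 3.88%, 1.15% and 0.0684% of genes passed (edgeR, the only tool run on it); of these, the T.mu test of Retnlb alone had an unadjusted p below 0.05.

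**Figure D4:**
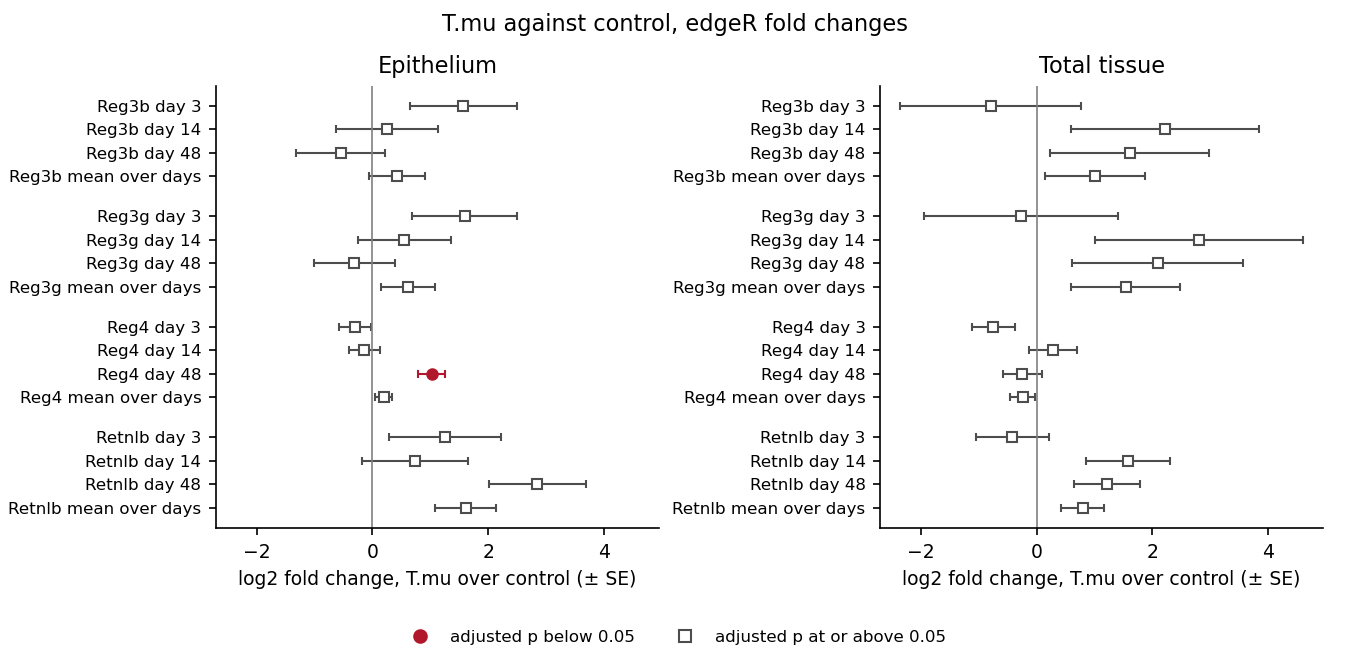
log2 fold change of T.mu over control libraries (edgeR, horizontal axis, bars ± SE) for each of the 4 genes on each day and as the mean over days, in epithelium and in total tissue. Reg4 in epithelium at day 48 (1.03) is the only filled point, at an adjusted p below 0.05, and the bars of the Reg3 genes in tissue are the widest.

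Ordered by group mean, no group of any of the 4 genes was separated from the next one in the order, since the ranges of neighbours overlapped in every case. Control epithelium of day 3 was lowest for Reg3b, Reg3g and Retnlb, at means of 403, 113 and 289 CPM, and control epithelium of day 48 was lowest for Reg4, at 326 CPM. The highest epithelial means were those of T.mu libraries at day 14 for Reg3b (1699.7 CPM) and Reg3g (438 CPM), and at day 48 for Reg4 (649 CPM) and Retnlb (3697 CPM). In tissue, T.mu libraries of day 3 were lowest for all 4 genes, at means of 473, 195, 121 and 15.4 CPM for Reg3b, Reg3g, Reg4 and Retnlb.

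Reg3b and Reg3g followed each other library by library. Over the 20 epithelial libraries the Pearson correlation of their log2 CPM was 0.97, and over the 20 tissue libraries 0.95, each the highest of any gene with either of them over those libraries. Reg3g as a share of the summed Reg3b and Reg3g counts, a measure chosen after the values were seen and given as a description, was not constant. In tissue it ran between 33.2% and 48.4% in the 8 libraries of day 48, T.mu and control alike, and between 10.4% and 30.8% in the 12 libraries of days 3 and 14, with no overlap. In epithelium the ranges were 21.3% to 29.2% and 16.4% to 28.0%, and overlapped. The tissue ranges at day 48 were 36.7% to 48.4% in T.mu libraries and 33.2% to 39.2% in controls, and the 4 libraries poor in small intestine markers lay within 33.2% to 43.3%. The day 48 libraries differ from the earlier ones in day of collection, and any batch that goes with it cannot be told apart.

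**Figure D5:**
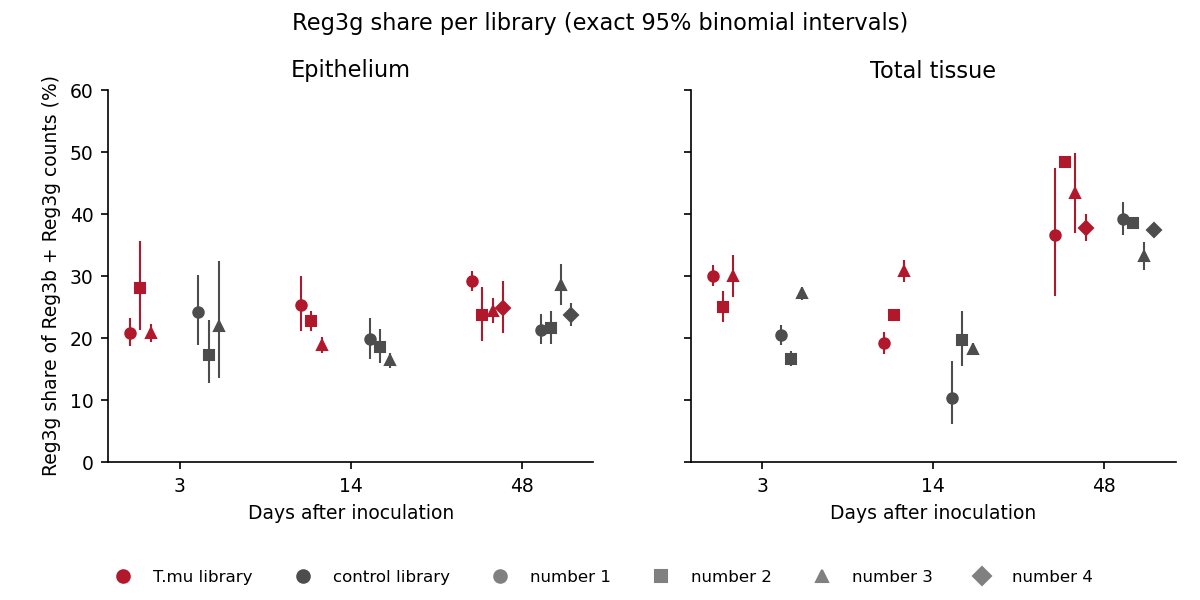
Reg3g counts as a percent of the summed Reg3b and Reg3g counts in each library (vertical axis) against days after inoculation, for epithelium and total tissue, with T.mu libraries in red left of control libraries in grey and exact 95% binomial intervals that cover at most counting error. All 8 tissue libraries of day 48 lie at 33.2% or above and all other tissue libraries at 30.8% or below.

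Other genes with like patterns differed between the 4. In epithelium the 3 genes most correlated with Retnlb were Mptx1 (mucosal pentraxin, Pearson 0.89 over 20 libraries), Itln1 (intelectin 1, a sugar-binding lectin of goblet and Paneth cells, 0.84) and Clps (colipase, 0.80), and with Reg4 they were Clps (0.79), Rwdd1 (0.74) and Zfp711 (0.71). Reg4 and Retnlb had a correlation of 0.66 with each other and between -0.27 and -0.03 with the Reg3 genes. In tissue the members stood otherwise to each other: Retnlb had a correlation of 0.64 with Reg3b, 0.72 with Reg3g and 0.42 with Reg4, and Reg4 one of 0.07 with Reg3b and 0.18 with Reg3g. After Reg3g, Reg3b was most like AI837181 (0.71) and Pdcd2l (0.69), and after Reg3b, Reg3g was most like Dusp3 (0.68) and AI837181 (0.68). In tissue both Reg3 genes were next most like Spink1 (a trypsin inhibitor, 0.90 each), followed by Plin3 for Reg3b (0.85) and the brush border protease gene Mep1b for Reg3g (0.89). Retnlb was most like Nfkbiz (0.83), Slc5a8 (0.83) and Hsd17b12 (0.82) there, and Reg4 most like Fads2 (0.78), Arrdc3 (0.77) and Xrcc4 (0.77). Over the 16 tissue libraries that were not marker-rich, Reg3b and Reg3g had a correlation of 0.92, B3galt5 and Cdc42ep2 took the place of Spink1, Plin3 and Mep1b (0.90 and 0.88 with Reg3b, 0.95 and 0.94 with Reg3g), and Retnlb had 0.59 with Reg3b, 0.74 with Reg3g and 0.26 with Reg4. Of the other neighbours Xrcc4 stayed among the 3 for Reg4 and Slc5a8 among those for Retnlb. These correlations include differences between days and inocula and carry no test.

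Itln1 at day 48 had 25.8, 62.6, 55.4 and 84.3 CPM in T.mu epithelium, against 16.1, 18.9, 1.13 and 10.1 CPM in controls. Mptx1 had 3124, 8929, 6296 and 6237 CPM in T.mu epithelium, against 5079.9, 3567, 1187 and 2146 CPM in controls. Itln1 separated the groups and Mptx1 did not, and neither passed (log2 2.36 ± 0.96 and 1.06 ± 0.69, adjusted p = 0.996 each by edgeR). Nfkbiz, which encodes the NF-κB cofactor IκBζ, did pass in tissue: it was 2.16-fold higher in T.mu tissue at day 14 (180.4 ± 51.1 CPM, against 88.2 ± 7.78 CPM in controls, SD, n = 3 each; edgeR adjusted p = 0.0389) and 1.81-fold higher at day 48 (edgeR adjusted p = 0.0352). Without the marker-rich libraries the day 48 value was 1.4-fold and did not pass (edgeR adjusted p = 0.753).

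The remaining Reg and resistin genes were at or near the detection limit in epithelium, where the 7 genes together summed to at most 30.6 CPM in any library. Of the 7, Reg3a passed the low-count filter in epithelium, and Reg3a, Retn and Retnla in tissue; none passed the T.mu test, with 1 in tissue at day 3 and 1 at day 48 at an unadjusted p below 0.05 (edgeR). Reg1, Reg2, Reg3d and Retnlg had 25, 16, 30 and 20 counts over all epithelial libraries and 17, 12, 8 and 13 over all tissue libraries. Retnla (RELMα, a product of alternatively activated macrophages) averaged 55.0 ± 35.5 CPM in T.mu tissue at day 48 and 53.5 ± 17.3 CPM in controls (SD, n = 4 each). Retn, which encodes the fat cell hormone resistin in mice, averaged 8.03 ± 7.18 CPM in T.mu tissue at day 48 and 77.8 ± 57.4 CPM in controls (SD, n = 4 each; log2 -3.30 ± 0.85, edgeR adjusted p = 0.071), and the fat marker Adipoq gave log2 -3.04 ± 0.76 (edgeR adjusted p = 0.0615) in the same comparison. Without the marker-rich libraries, with 2 libraries left a group, Retn passed as lower in T.mu tissue (log2 -4.56, edgeR adjusted p = 0.0179), Adipoq gave -2.66 (edgeR adjusted p = 0.0866) and Retnla 0.22 (edgeR adjusted p = 0.965). Retn had 16 counts over all 4 T.mu tissue libraries of day 48, and index and inoculum cannot be told apart in that comparison. The part of fat in the Retn values was not tested.

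The IL-22 and IL-17 axis, on which the Reg3 genes sit, held 32 other genes, of which 16 were tested in epithelium and 19 in tissue. This list and those below were chosen with earlier results of these data known, so their counts and medians are a description. In epithelium none passed on a single day, with 3, 2 and 2 at an unadjusted p below 0.05 at days 3, 14 and 48 (edgeR, the only tool run on lists). In the mean over days, where 3.39% of all genes passed in either direction, 1 rose: Duoxa2, which encodes the maturation factor of the dual oxidase DUOX2. Its counts, not scaled to depth, summed to 29, 54 and 83 in T.mu epithelium at days 3, 14 and 48, against 0, 26 and 16 in controls (edgeR adjusted p = 0.00617). At day 3 the median mouse count per library was 842506 in T.mu and 327125 in control epithelium. In tissue 2 rose at day 14, 1 at day 48 and 2 in the mean over days, where 0.966%, 1.8% and 1.91% of all genes passed in either direction. Saa3, a serum amyloid A induced in inflamed epithelium, had 46.1 ± 28.0 CPM in T.mu tissue at day 14 and 7.63 ± 2.05 CPM in controls (SD, n = 3 each; 7.64-fold by edgeR, adjusted p = 0.0015), and Nfkbiz was the other gene at day 14 and in the mean over days and the single one at day 48. In tissue at day 3 none of the 19 passed or had an unadjusted p below 0.05 (edgeR). The list's median log2 value in tissue was -0.10, 0.45 and 0.42 at days 3, 14 and 48, against -0.01, 0.06 and -0.11 for all genes tested. Without the marker-rich libraries 3 of 19 tested genes of the list passed as higher in the tissue mean over days. Among them were Saa3 (3.13-fold, edgeR adjusted p = 8.94e-05) and Duoxa2 (2.84-fold, edgeR adjusted p = 0.00342). That fit tested 12118 genes, and over the alternative settings 146 to 305 of all genes passed in the tissue mean. At day 48 no gene of the list passed without those libraries, with 3 at an unadjusted p below 0.05 (edgeR), and the median was 0.35, against -0.09 for all genes. Its median in epithelium was 0.25, 0.36 and 0.10 at days 3, 14 and 48, against 0.06, 0.01 and 0.02 for all genes.

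The type 2 axis, on which Retnlb sits, held 34 other genes, of which 12 were tested in epithelium. At day 48 in epithelium 4 of the 12 rose: Pla2g4c, a cytosolic phospholipase A2 (48.6 ± 42.0 CPM in T.mu and 8.36 ± 4.69 CPM in control libraries, SD, n = 4 each; edgeR adjusted p = 0.00733), and 3 genes for pore-forming gasdermin C proteins, Gsdmc2 (2.35-fold, edgeR adjusted p = 0.00651), Gsdmc3 (2.14-fold, edgeR adjusted p = 0.0371) and Gsdmc4 (1.92-fold, edgeR adjusted p = 0.041). The list's median log2 value was 0.84, against 0.02 for all genes tested. Of all genes, 0.296% passed in this comparison and 0.504% at day 14. The list was chosen with earlier results of these data known, so its count and median are a description. At day 14 Pla2g4c alone rose, with 42 counts summed over the 3 T.mu libraries and 0 over the 3 controls (edgeR adjusted p = 0.0114), and at day 3 none did, with list medians of 0.10 and 0.09. In tissue 17 were tested, and none passed on a single day, with 5, 6 and 5 at an unadjusted p below 0.05 at days 3, 14 and 48 (edgeR). In the mean over days, where 1.91% of all genes passed, Sprr2a3, a small proline-rich protein gene, rose 1.36-fold (edgeR adjusted p = 0.0381). It did not pass without the marker-rich libraries (1.26-fold, edgeR adjusted p = 0.261). Without those libraries 2 of 16 tested genes of the list passed as higher in that mean, among them Areg (1.9-fold, edgeR adjusted p = 0.000753). That fit tested 12118 genes, and over the alternative settings 146 to 305 of all genes passed in the tissue mean.

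No gene of the goblet and deep crypt list, the cells in which Reg4 and Retnlb are known to be made, passed as higher in T.mu libraries. Of 25 goblet and deep crypt genes, 24 were tested in epithelium: none passed at day 3 or 48, with 2 and 4 at an unadjusted p below 0.05 (edgeR), and Tff3, a trefoil peptide of goblet cells, fell 2.04-fold at day 14 (edgeR adjusted p = 0.042). In the mean over days Tff3 and Sytl2, a synaptotagmin-like secretion gene, fell 1.43-fold and 1.66-fold (edgeR adjusted p = 0.027 and 0.0415). The list's median at day 48 was 0.02, equal to that of all genes. In tissue none of 23 passed on a single day, with 5, 1 and 4 at an unadjusted p below 0.05 at days 3, 14 and 48 (edgeR), and Fer1l6, a ferlin family gene, fell 1.61-fold in the mean over days (edgeR adjusted p = 0.0112). Of the barrier genes outside the Reg family, Lypd8, which encodes a surface protein that keeps flagellated bacteria off the colonic epithelium, rose in tissue at day 14 (1.78-fold, edgeR adjusted p = 5.79e-05) and day 48 (1.43-fold, edgeR adjusted p = 0.00649; 1.51-fold with an adjusted p of 0.0893 without the marker-rich libraries). It was the only one of 13 tested in tissue to do so on either day, where 0.966% and 1.8% of all genes passed. In epithelium it was the only one of 9 to rise in the mean over days (1.36-fold, edgeR adjusted p = 0.0477), where 3.39% of all genes passed. General epithelial markers rose beside these genes: 5 of 10 in the epithelial mean over days, led by Krt20 (1.5-fold), Krt8 (1.51-fold) and Krt19 (1.53-fold), where 3.39% of all genes passed. In the tissue mean, where 1.91% of all genes passed, 2 of 10 rose, Krt20 (1.33-fold) and Car1 (1.22-fold). Of these Car1 did not pass without the marker-rich libraries (edgeR adjusted p = 0.0562). Their part in the differences above was not tested. Jchain, of plasma cells, was the 1 of 13 non-epithelial markers tested that rose in tissue at day 48, where 1.8% of all genes passed (1.87-fold, edgeR adjusted p = 0.00349). Without the marker-rich libraries it was 1.75-fold with an edgeR adjusted p of 0.255.

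Epithelial and tissue libraries with the same day, inoculum and number were set side by side for each gene. For Retnlb the Pearson correlation of log2(CPM + 1) over the 20 pairs was 0.652 (permutation p = 0.00218, adjusted p = 0.00872 over the 4 genes) and the Spearman correlation was 0.571 (permutation p = 0.0094, adjusted p = 0.0376). The 20 pairs span 6 groups whose levels differ, and that permutation was not held within groups. With each value taken as its deviation from its group's mean and permuted within groups, Retnlb gave 0.608 (permutation p = 0.0195, adjusted p = 0.078 over the 4 genes) and no longer passed. Without the 2 pairs farthest from the epithelial median the pooled value was 0.428 (permutation p = 0.0763), so the call depended on those pairs. Without the 4 pairs with a marker-rich tissue library the pooled value was 0.425 (permutation p = 0.101). It was 0.667 within the 10 T.mu pairs and 0.159 within the 10 control pairs. By day it was -0.177 over 6 pairs at day 3, 0.778 over 6 pairs at day 14 and 0.822 over 8 pairs at day 48, where T.mu and control pairs are mixed. Exact permutation gave p = 0.771, 0.0833 and 0.000992 in that order, unadjusted and not held within groups.

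For Reg3b, Reg3g and Reg4 the pooled Pearson correlations were 0.186, 0.132 and 0.0993 and the Spearman correlations 0.0511, 0.18 and -0.0662, and none passed (permutation, adjusted p at least 0.679). The pooled values of the Reg3 genes joined days of opposite sign. At day 14 they were 0.802 for Reg3b and 0.84 for Reg3g over 6 pairs (exact permutation p = 0.0583 and 0.0486, unadjusted), and at day 48 they were -0.357 and -0.481 over 8 pairs (exact permutation p = 0.369 and 0.217, unadjusted). At day 3 they were -0.187 and 0.0828. Without the 4 pairs with a marker-rich tissue library the pooled values were 0.543 and 0.585 (permutation p = 0.0294 and 0.0161, unadjusted). As deviations from group means over all 20 pairs they were 0.193 and 0.159, with 0.355 for Reg4, and none of the 3 passed (permutation, adjusted p at least 0.199). Reg4 gave 0.0258, 0.533 and 0.0321 at days 3, 14 and 48.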

How the data were processed

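RNA of colonic epithelial cells and of total colon tissue was extracted with phenol and chloroform and made into 3′ end digital gene expression libraries, per the labels' protocols. The authors deposited 1 table of whole-number read counts per gene and library, made with STAR and Subread per the submitters' processing notes. The genome build, annotation and handling of reads that match several genes are not given in the sources used here. Column names were matched to libraries by the index pair in the labels, and 0 columns belonged to no library. Gene IDs were matched to GENCODE M21, which paired 45143 of 45792 with a symbol. In 72.1% to 92.1% of cases per library, values of 2 to 20 counts were even, so both mates of a read pair may have been counted. Ribosomal RNA genes and Lars2 took 25.6% to 46.6% of epithelial and 8.96% to 29.5% of tissue counts. The non-mouse row (0.389% of all counts) entered neither library sizes nor tests.

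Counts were fitted with edgeR 4.0.16 (R 4.3.3, limma 3.58.1): filterByExpr (minimum count 10, minimum total 15), TMM scaling, a robust quasi-likelihood fit over the 20 libraries of a preparation in 6 groups, and over all 40 libraries for comparisons between preparations, with no block. P-values were adjusted by Benjamini-Hochberg over all genes tested, and below 0.05 passed. Fold changes are T.mu over control unless stated, and their errors are standard errors. The labels do not tie each library to 1 mouse, so p-values measure the spread between these libraries, which may be technical in part. Exact permutation tests used log2(CPM + 1), two-sided (scipy 1.17.1, Python 3.11.15, numpy 2.4.6), correlations used 100000 permutations, and binomial intervals are Clopper-Pearson. Intervals cover at most counting error, since the counts are of reads. They take each count as a separate read, and are too narrow if both mates of a pair were counted. The model was tested on simulated counts with the same spread for all genes, which does not cover genes as variable as Reg3b, Reg3g and Retnlb.

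Replicate numbers mark a shared litter in the labels. Deviations of same-numbered T.mu and control libraries from their group means correlated between -0.10 and 0.19 over genes in the 20 pairs. The litter number was therefore tried as a block, with a term per number over all days, which changed no call of the 4 genes. A pairing within each day was not fitted.

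The 4 genes and the gene lists were chosen with earlier results of these data known. Text names the 4 genes, the other Reg and resistin genes, up to 3 passing genes of each list per direction and comparison, and the 3 genes most correlated with each of the 4; Gsdmc4 was added after its values were seen, to complete a count. Of the lists, the Paneth and small intestine list had 10 genes tested in tissue and 3 in epithelium, and the pancreas list 2 in each, of which 0 passed in any T.mu comparison (edgeR; at most 1 gene of each had an unadjusted p below 0.05 in any of them). Alternatives were RLE scaling, no filter, DESeq2 1.42.0, the litter block, counts halved, library sizes without ribosomal RNA and Lars2, libraries of at least 400000 counts, fits on the compared libraries alone, each library left out in turn, and a pseudocount of 10 or TMM-scaled CPM in the permutation tests. Added after seeing the data were leaving out the 4 marker-rich tissue libraries and the correlation of deviations from group means.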

Additional observations from a re-analysis of the deposited data

Results flagged for a closer look

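Within the 20 sets of 4 libraries checked at day 48, 16 of gene levels and 4 of Reg3g shares, a single library stood farther from the other 3 than Dixon's 95% limit in 2, where chance gives about 1 in 20. Control library 4 of day 48 epithelium had 397.3 CPM of Reg3g, and its gap to the next control was 0.883 of the group's range. T.mu library 4 of day 48 total tissue had 393.8 CPM of Reg4, with a gap of 0.938 of the range; it is 1 of the 4 libraries with over 1000 CPM of Paneth and small intestine markers. Without control library 4 the Reg3g difference in epithelium was log2 0.25, against -0.31 with it, and neither passed (edgeR). Without T.mu library 4 the Reg4 difference in tissue was log2 -0.52, against -0.25 with it, and neither passed (edgeR). The cause was not tested.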

How the results depend on the processing

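Of 612 fold changes of the 4 genes under an alternative, 578 kept their direction and their side of the threshold, 4 lost a call, 7 gained one and 23 turned sign. Leaving out 1 library at a time, the count of the 4 genes that passed was 0 to 1 in day 48 epithelium, in day 14 tissue and in the tissue mean over days. DESeq2 called 2 genes in day 48 epithelium (Reg4 and Retnlb) and 1 in the epithelial mean over days (Retnlb). Without the low-count filter 1 gene, Retnlb, passed in day 14 tissue and 1, Retnlb, in the tissue mean over days. A fit on the compared libraries alone called 1 gene, Reg4, in day 3 tissue. Leaving out 1 library, log2 values that could turn sign ran in epithelium from -0.466 to 0.177 (Reg4, day 3), -0.0496 to 1.69 (Retnlb, day 3), -0.469 to 1.40 (Reg3b, day 14), -0.0501 to 1.21 (Retnlb, day 14) and -0.687 to 0.252 (Reg3g, day 48). In tissue they ran from -1.02 to 0.323 (Reg3g, day 3), -0.689 to 0.000518 (Retnlb, day 3), -0.0132 to 0.771 (Reg4, day 14), -0.0115 to 2.36 (Reg3b, day 48), -0.0430 to 2.87 (Reg3g, day 48) and -0.521 to 0.0290 (Reg4, day 48). Other turns of sign were Reg4 in day 3 epithelium without libraries under 400000 counts (0.0411), and Reg3b and Reg3g in day 48 tissue without the 4 libraries rich in small intestine markers (-0.927 and -0.768), an alternative chosen after seeing the data. Under it the T.mu effect of epithelium minus tissue was 0.422 and 0.515 at day 48 and 0.324 and 0.0924 as a mean over days, for Reg3b and Reg3g in that order, Reg3b in control epithelium over control tissue was 0.200, and the Reg4 correlation between preparations was -0.0520. On TMM-scaled CPM the mean difference in day 14 epithelium was -0.0423 for Reg3b and -0.138 for Reg4. The correlation between preparations was -0.0778 for Reg3g in T.mu pairs and -0.0161 for Reg4 in control pairs. With litter as a block, Reg3g in day 3 tissue was 0.298, and Reg4 in day 48 epithelium stayed at 1.01 (edgeR, adjusted p = 0.0229). Counts over all genes moved more. Over the other settings they ran from 10 to 48 in day 3 epithelium (36 as reported), 51 to 262 in day 14 epithelium (51), 29 to 34 in day 48 epithelium (30), 47 to 103 in day 3 tissue (55), 27 to 174 in day 14 tissue (113) and 58 to 370 in day 48 tissue (211), and in the means over days from 151 to 468 in epithelium (343) and 146 to 305 in tissue (223). For the T.mu effect of epithelium minus tissue they ran from 1 to 6 at day 48 (4) and 39 to 72 as a mean over days (89). The cause of these shifts was not tested. Depth limits Retnlb in tissue most, at 4 to 187 counts a library, and 3 libraries a group limit days 3 and 14.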
